A study of Mus musculus with 6 samples.

Results

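The 34 genes described here act in glycolysis or in the response to low oxygen, and were followed in regulatory T (Treg) cells of mice with both, or 1, of their Gata3 alleles open to deletion in these cells. The genes were chosen by symbol, and each was read from the probe set annotated to that gene alone, taking the one with the highest mean where there were several. Of the 34 listed genes, 31 were measured this way, among 12393 genes in all. Gpi1, Gapdh and Eno1 had no such probe set apart from the array's control probe sets. The measured genes comprised 14 of 17 glycolytic enzymes and 5 genes of pyruvate dehydrogenase and glycolytic control. They also held 3 oxygen-sensing genes, 7 hypoxia targets and 2 glycogen enzymes.

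Cells were sorted as CD4+CD25+YFP+ from spleen and lymph nodes, and their RNA was hybridised to Affymetrix arrays, 1 array for each mouse. The 3 arrays labelled GATA3KO came from Gata3F/F Foxp3YFP-Cre mice, in which both Gata3 alleles are floxed. The 3 arrays labelled WT came from Gata3F/+ Foxp3YFP-Cre mice, so the controls also carried the Cre and 1 floxed allele. In all of them the Cre was expressed from the Foxp3 locus, which limits deletion to cells that have switched Foxp3 on. No ages are stated for the mice. Values are log2 intensities as the authors normalized them, and changes are GATA3KO minus WT.

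Glycolysis splits glucose into pyruvate in the cytosol, and lactate dehydrogenase can turn the pyruvate into lactate. The pyruvate dehydrogenase complex instead commits pyruvate to mitochondrial oxidation. When oxygen is scarce, prolyl hydroxylases no longer mark HIF-1α for destruction, and the factor then binds short ACGTG-containing elements and raises glycolytic and survival genes. Activated T cells raise glycolysis even with oxygen present. Treg cells are described as relying more on oxidation at rest and as using glycolysis when they proliferate or migrate.

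The 6 arrays correlated at 0.994 to 0.998 with each other. The Gata3 probe set read 9.83, 9.98 and 9.71 in arrays labelled GATA3KO, against 9.57, 9.41 and 9.47 in arrays labelled WT. It was higher in the arrays labelled as deficient (log2 change 0.35 ± 0.071, SE, adjusted p = 0.0387 by limma), which goes against the labels. The call was lost in 4 of the 6 fits with 1 array left out, with an adjusted p of up to 0.182. The sources do not say which stretch of Gata3 is floxed, and probes that lie outside that stretch check nothing. All directions below rest on the labels. Foxp3 read 3.82, 4.06 and 3.93 in arrays labelled GATA3KO and 3.85, 3.94 and 3.91 in arrays labelled WT, below the 40th percentile of all probe sets (5.25), a level called dim here. The other 10 measured genes of the Treg marker list were not dim. Ctla4 read 12.06, 12.10 and 12.07 in arrays labelled GATA3KO and 11.92, 11.75 and 11.90 in arrays labelled WT. Its groups did not overlap (log2 change 0.22, adjusted p = 0.0532 by limma). Cd3e, a gene of T cells in general, read 9.62, 9.74 and 9.69 in arrays labelled GATA3KO and 9.75, 9.59 and 9.66 in arrays labelled WT.

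The ACGTG core that HIF-1 binds was looked for, on either strand, from 250 bases before to 50 bases after each gene's annotated start in RefSeq promoters (GRCm38.p6). Promoters were found for 33 of the 34 genes, all but Bhlhe40. The core stood in 21 of the 33 genes (63.6%), against 26.9% of 9887 genes of the array and 21.8% of all 27025 genes with a promoter in the table. A gene counted if any of its annotated starts had the core. By single starts, 24 of 47 (51.1%) held it, against 23.3% for genes of the array. All 3 oxygen-sensing genes and all 6 hypoxia targets with a promoter held it, as did 10 of 17 glycolytic enzymes, 2 of 5 genes of pyruvate dehydrogenase and glycolytic control, and 0 of 2 glycogen enzymes. The genes were chosen for glycolysis and the response to low oxygen, so a share above that of all genes may follow from the choice. A match describes letters and is not a bound site. Shown first are the 250 bases before the start of Pgk1, which has 2 copies, of Ldha, whose 5 matches include 4 within 2 palindromes CACGTG, and of Tpi1, which has 0. The other 2 are 30-base stretches around the single matches of Aldoc and Mif, which lie after the start. Capitals mark ACGTG or its complement CACGT, read 5′ to 3′ along the gene's strand.
Pgk1, chrX:106186850-106187099, plus strand: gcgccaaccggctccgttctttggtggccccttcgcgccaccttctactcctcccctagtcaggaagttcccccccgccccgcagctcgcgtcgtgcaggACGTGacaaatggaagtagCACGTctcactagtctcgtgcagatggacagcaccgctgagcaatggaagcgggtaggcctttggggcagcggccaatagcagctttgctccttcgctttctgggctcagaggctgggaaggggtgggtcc
Ldha, chr7:46845554-46845803, plus strand: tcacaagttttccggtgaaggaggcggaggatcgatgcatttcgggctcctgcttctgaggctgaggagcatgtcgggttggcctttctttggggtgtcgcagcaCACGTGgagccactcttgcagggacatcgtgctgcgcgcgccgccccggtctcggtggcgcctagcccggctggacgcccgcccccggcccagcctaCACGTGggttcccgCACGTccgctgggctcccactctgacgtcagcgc
Tpi1, chr6:124814159-124814408, minus strand: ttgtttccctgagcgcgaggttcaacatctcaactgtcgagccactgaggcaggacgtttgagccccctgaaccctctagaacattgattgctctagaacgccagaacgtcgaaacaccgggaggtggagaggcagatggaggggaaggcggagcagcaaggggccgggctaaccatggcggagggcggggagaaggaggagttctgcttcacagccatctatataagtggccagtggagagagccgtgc
Aldoc, chr11:78323088-78323117, plus strand: cccccagggagtCACGTagctctgcggcaa
Mif, chr10:75860231-75860260, minus strand: actgagctgggtCACGTagctcaggtccct
Genes with and without the core both had changes of either sign. The 20 measured genes with it had a median log2 change of 0.0069, with 10 above 0, and the 10 without it had a median of -0.044, with 4 above 0. Ldha, with the most matches shown, had a log2 change of 0.021, while Tpi1, with none, had 0.25.

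The comparison asked how Treg transcripts differ when Gata3 is deleted, here for energy metabolism. Across the 31 measured genes, 2 passed an adjusted p of 0.05 by limma, the aldolase gene Aldoc and the transcription factor gene Bhlhe40, both higher in arrays labelled GATA3KO. None was called lower. Over all genes, 179 (1.44%) were called higher and 95 (0.767%) lower, 2.21% in either direction (158 higher and 131 lower after median centring). At an unadjusted p under 0.05, 9 of the 31 were higher and 0 lower, against 8.63% and 5.8% of all genes. The 3 arrays of one group all lay above the 3 of the other for 14 of the 31 genes, 10 higher and 4 lower in arrays labelled GATA3KO. That is 45.2% of the list, against 19.8% of all genes (11.3% higher, 8.51% lower). Signs were split, with 15 changes above 0 and 16 below, and the median was -0.0076, beside 0.0079 over all genes. In such bulk samples, fewer cells of a type and less RNA per cell cannot be told apart. The count of 2 calls was not stable. It fell to 0 or 1 when any 1 array was left out, to 0 without the intensity trend in limma and to 0 when all probe sets of a gene were averaged. It was 5 with array quality weights, which added Tpi1, Pgk1 and Mif.

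**Figure D1:**
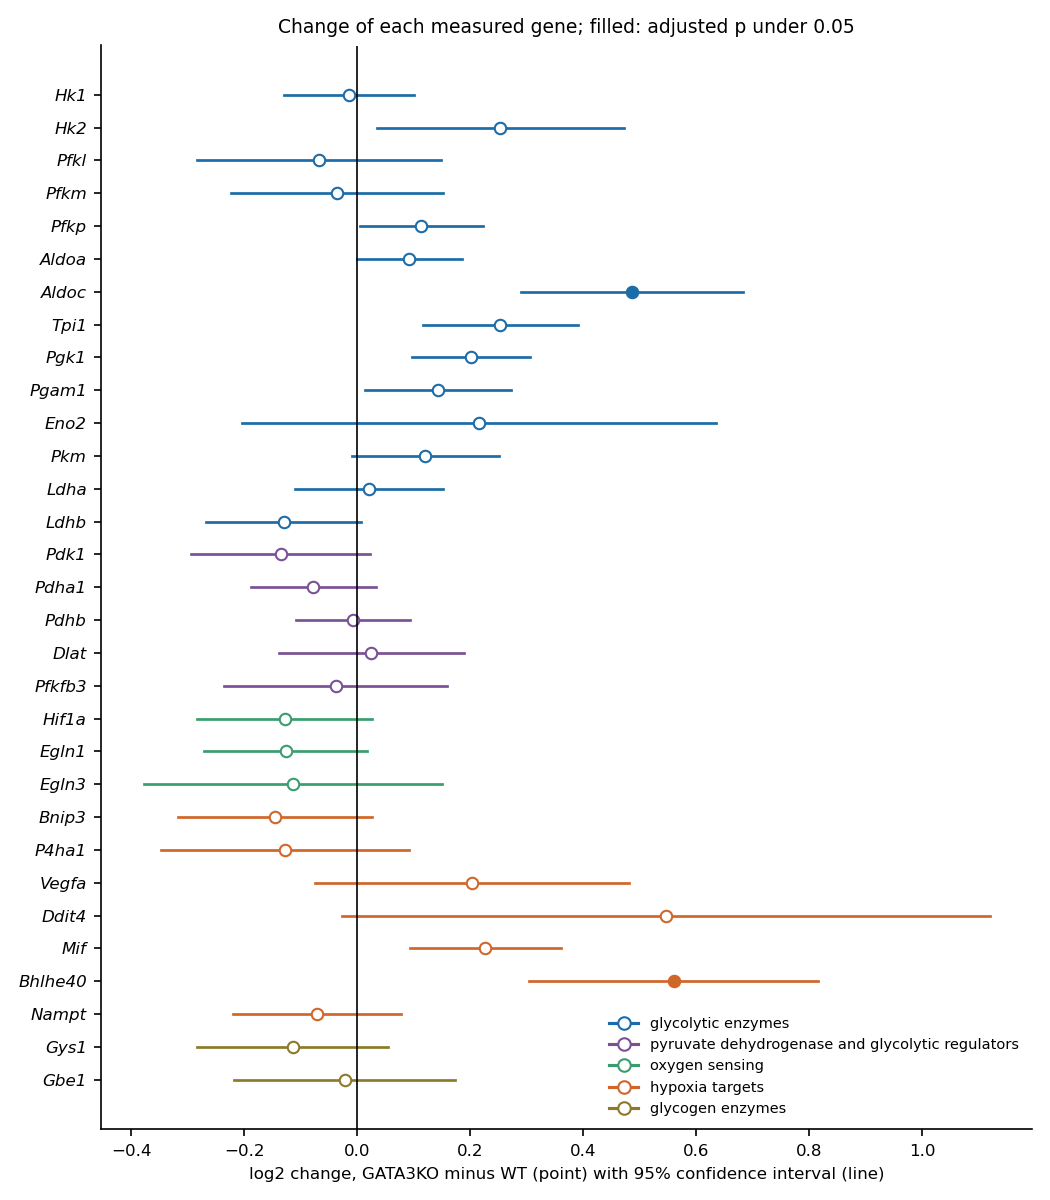
Log2 change, GATA3KO minus WT, of each of the 31 measured genes (points) with its 95% confidence interval (lines), coloured by list, with filled points for an adjusted p under 0.05. Aldoc and Bhlhe40 are filled, most glycolytic enzymes lie right of 0, and the genes of pyruvate dehydrogenase, oxygen sensing and glycogen lie near or left of it.

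Most measured glycolytic enzymes read higher in arrays labelled GATA3KO, by small amounts. Of the 14 enzymes, 10 had a change above 0, with a median of 0.12 against 0.0079 over all genes. In 8 of the 14 (57.1%), Hk2, Pfkp, Aldoa, Aldoc, Tpi1, Pgk1, Pgam1 and Pkm, every array labelled GATA3KO lay above every array labelled WT, against 11.3% of all genes. Of these, 1, Aldoc, passed the adjusted threshold, and 7 had an unadjusted p under 0.05 (50% of the 14, against 8.63% of all genes).

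Aldoc, a fructose-bisphosphate aldolase best known from brain, had the largest change of the enzymes. Its probe set read 6.55, 6.35 and 6.53 in arrays labelled GATA3KO, against 5.93, 6.03 and 6.02 in arrays labelled WT. The lowest of the first 3 lay well above the highest of the others. The means were 6.48 ± 0.11 in arrays labelled GATA3KO and 5.99 ± 0.053 in arrays labelled WT (SD, n = 3 each), which is 1.40-fold higher (log2 change 0.49 ± 0.088, SE, adjusted p = 0.0247 by limma). A second Aldoc probe set was dim and had a change of -0.017. Leaving out any 1 array kept the change between 0.45 and 0.55 and took the adjusted p to between 0.0507 and 0.106 by limma, so the call was lost each time.

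Tpi1 and Pgk1, which act after aldolase, came close to the threshold. Triose-phosphate isomerase, Tpi1, interconverts the 2 triose phosphates that aldolase makes. It read 8.75, 8.68 and 8.76 in arrays labelled GATA3KO and 8.46, 8.39 and 8.58 in arrays labelled WT, 1.19-fold higher (log2 change 0.25 ± 0.061, SE, adjusted p = 0.0691 by limma). Its other 2 probe sets had changes of 0.18 and 0.15. Phosphoglycerate kinase, Pgk1, makes the first ATP of the payoff phase and is a classical HIF-1 target. Values for Pgk1 were 10.73, 10.76 and 10.80 in arrays labelled GATA3KO and 10.50, 10.55 and 10.63 in arrays labelled WT, 1.15-fold higher (log2 change 0.20 ± 0.047, SE, adjusted p = 0.0615 by limma). All 3 Pgk1 probe sets were higher without overlap, with changes of 0.20, 0.34 and 0.19. Those with 0.34 and 0.19 may also bind other transcripts, by the ending _x_at of their names. The same ending marks the probe set that stands for Tpi1. Neither gene passed. Among the unpaired fits, Pgk1 passed with dim probe sets left out (adjusted p = 0.0483 by limma) and with array weights (0.0179), and its highest adjusted p over all alternatives was 0.241.

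The other steps had larger adjusted p values. Hexokinase 2, Hk2, is the inducible enzyme of the first step. It read 6.58, 6.55 and 6.44 in arrays labelled GATA3KO and 6.36, 6.08 and 6.36 in arrays labelled WT (log2 change 0.25 ± 0.098, SE, adjusted p = 0.260 by limma). Its groups did not overlap, though the array labelled WT replicate 2 lay apart at 6.08. Hk1, the constitutive hexokinase, overlapped between the groups, at 9.15, 9.25 and 9.22 in arrays labelled GATA3KO and 9.16, 9.25 and 9.26 in arrays labelled WT.

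Phosphofructokinase catalyses the committed step and is encoded by 3 genes. Pfkp read 9.82, 9.75 and 9.82 in arrays labelled GATA3KO and 9.62, 9.68 and 9.75 in arrays labelled WT (log2 change 0.11 ± 0.049, SE, adjusted p = 0.322 by limma). Its groups did not overlap but almost touched, at 9.7500 in GATA3KO replicate 2 and 9.7490 in WT replicate 3. Pfkl, at 6.44, 6.29 and 6.18 in arrays labelled GATA3KO and 6.38, 6.26 and 6.47 in arrays labelled WT, and Pfkm had changes of -0.067 and -0.035 with overlapping groups. A second Pfkp probe set had a change of -0.077, so the higher reading was that of 1 of its 2 probe sets. Aldoa, the aldolase of muscle and most other tissues, read 10.48, 10.42 and 10.47 in arrays labelled GATA3KO and 10.38, 10.33 and 10.38 in arrays labelled WT (log2 change 0.093 ± 0.041, SE, adjusted p = 0.342 by limma). Its other 3 probe sets had changes of 0.067, 0.034 and -0.035. All 4 end in _x_at, the maker's mark for probes that may also bind other transcripts.

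Phosphoglycerate mutase, Pgam1, read 8.86, 8.90 and 8.81 in arrays labelled GATA3KO and 8.64, 8.70 and 8.80 in arrays labelled WT (log2 change 0.14 ± 0.057, SE, adjusted p = 0.280 by limma). Pyruvate kinase, Pkm, whose M2 form prevails in proliferating cells, read 8.68, 8.68 and 8.71 in arrays labelled GATA3KO and 8.67, 8.49 and 8.55 in arrays labelled WT (log2 change 0.12 ± 0.058, SE, adjusted p = 0.389 by limma). For both, every array labelled GATA3KO lay above every array labelled WT, though the nearest arrays of the groups almost touched. Eno2, the neuronal enolase, was dim on all arrays, and its groups overlapped (log2 change 0.21 ± 0.19, SE).

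The lactate dehydrogenase genes differed from this. Ldha, the subunit that favours lactate formation, read 11.06, 11.06 and 11.04 in arrays labelled GATA3KO and 10.91, 11.04 and 11.16 in arrays labelled WT. The arrays labelled GATA3KO lay close together and within the spread of the arrays labelled WT, and the 95% interval of the change ran from -0.11 to 0.15. Ldhb, the subunit that favours pyruvate formation, was the enzyme with the lowest change. It read 8.51, 8.32 and 8.42 in arrays labelled GATA3KO and 8.58, 8.55 and 8.52 in arrays labelled WT (log2 change -0.13 ± 0.061, SE, adjusted p = 0.377 by limma). All 4 Ldhb probe sets read lower, by changes of -0.13, -0.071, -0.20 and -0.12, and 3 of them without overlap between the groups, though for the one that stands for the gene the groups nearly touched.

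**Figure D2:**
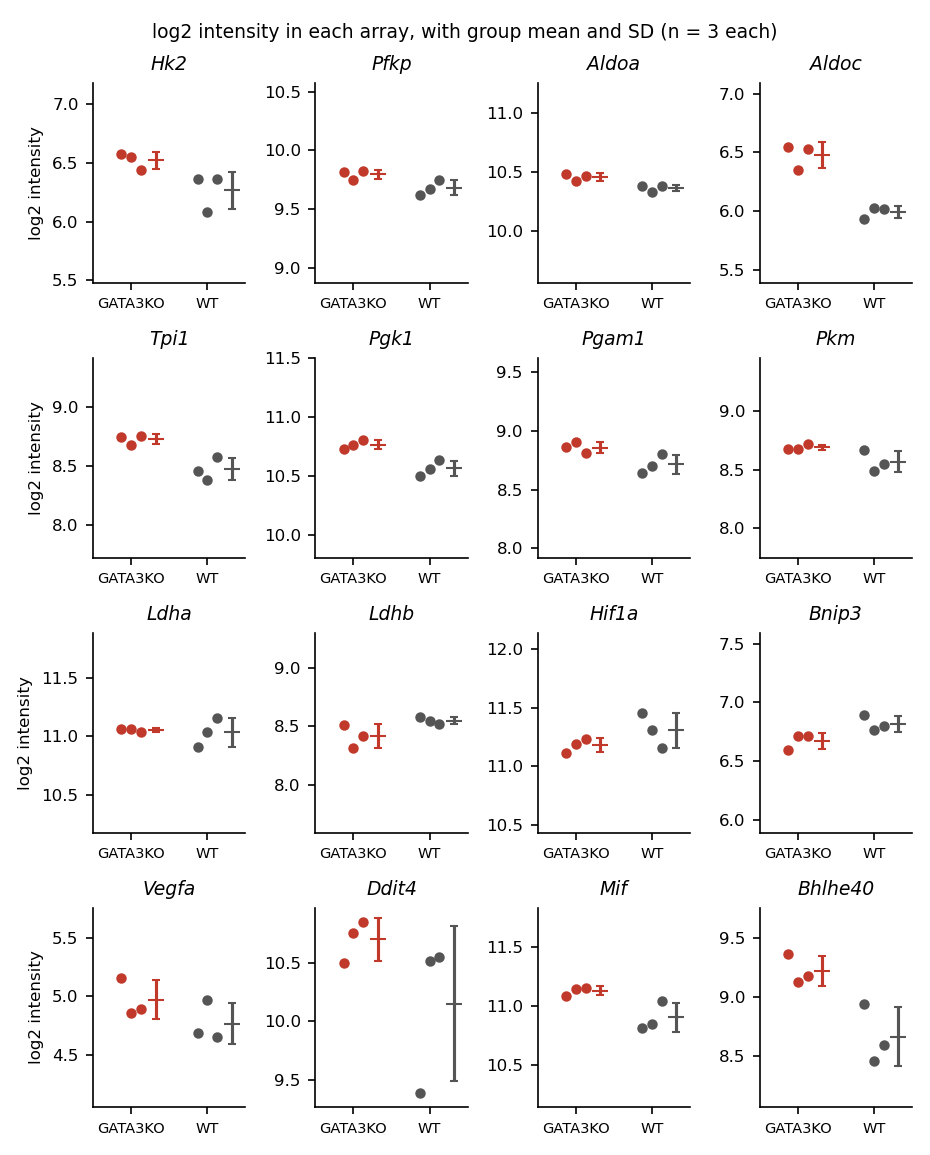
Log2 intensity of 16 of the genes in each of the 3 arrays labelled GATA3KO (red) and the 3 labelled WT (grey), with the group mean and SD beside the points. Every panel spans the same number of log2 units, and the axes do not start at 0. Aldoc and Bhlhe40 show the widest gaps, and Ddit4 has 1 low array labelled WT, at 9.39.

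Paired isozymes were then set against each other within each array, by the difference of their log2 values centred on the 6-array mean. In all, 5 pairs were compared, and with 3 arrays against 3 the smallest p that the exact two-sided permutation test can give is 0.1. Aldoc minus Aldoa was 0.24, 0.11 and 0.24 in arrays labelled GATA3KO and -0.27, -0.13 and -0.19 in arrays labelled WT, a difference of 0.39. Hk2 minus Hk1 differed by 0.27 and Pfkp minus Pfkm by 0.15. These 3 pairs did not overlap between the groups and each reached an exact p of 0.1 (0.167 adjusted over the 5 pairs). Pfkp minus Pfkl differed by 0.18 (exact p = 0.2, 0.25 adjusted) and Ldha minus Ldhb by 0.15 (exact p = 0.3, 0.3 adjusted), both with overlap. No pair could pass at this size.

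The 5 genes of pyruvate dehydrogenase and glycolytic control did not separate the groups by the probe sets that stand for them. Pdk1, the kinase that switches pyruvate dehydrogenase off and a HIF-1 target, had the lowest change of its list. It read 9.74, 9.86 and 9.66 in arrays labelled GATA3KO and 9.83, 10.03 and 9.82 in arrays labelled WT (log2 change -0.14 ± 0.071, SE, adjusted p = 0.437 by limma), and a second probe set had a change of 0.022. Changes were -0.077 for Pdha1 and -0.0076 for Pdhb, which encode the 2 subunits of the complex's first enzyme. A second, dim Pdhb probe set was lower without overlap, with a change of -0.28. Dlat, the acetyltransferase core of the complex, read 7.37, 7.20 and 7.37 in arrays labelled GATA3KO and 7.26, 7.26 and 7.36 in arrays labelled WT, a change of 0.025. Its other 2 probe sets had changes of 0.17, without overlap, and -0.10, with overlap, so its direction depended on the probe set. Pfkfb3, which makes the activator of phosphofructokinase, had a change of -0.038. None of the 5 genes was called, 0 had an unadjusted p under 0.05, and all 5 overlapped between the groups.

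The oxygen-sensing genes all had changes below 0, and none passed. Hif1a encodes the oxygen-regulated subunit of HIF-1, which is controlled mainly through the stability of its protein, and that was not measured. It read 11.12, 11.19 and 11.23 in arrays labelled GATA3KO and 11.46, 11.31 and 11.16 in arrays labelled WT (log2 change -0.13 ± 0.069, SE, adjusted p = 0.450 by limma). Its groups overlapped, and 3 of its 4 probe sets had changes between -0.13 and -0.083, with the dim one at 0.048. Egln1, the main prolyl hydroxylase that marks HIF-1α, read 8.81, 9.01 and 9.03 in arrays labelled GATA3KO and 9.08, 9.05 and 9.09 in arrays labelled WT, lower without overlap (log2 change -0.13 ± 0.064, SE, adjusted p = 0.416 by limma). A second Egln1 probe set had a change of -0.060 with overlap. Egln3, an inducible member of the same family, read 5.61, 5.68 and 5.96 in arrays labelled GATA3KO and 6.00, 5.73 and 5.86 in arrays labelled WT (log2 change -0.11 ± 0.12, SE, adjusted p = 0.741 by limma).

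Among the 7 hypoxia targets there were 4 changes above 0 and 3 below. Of them, 1 was called higher (1.44% of all genes) and 2 were higher at an unadjusted p under 0.05 (8.63% of all genes). Without overlap, 2 were higher and 1 lower, against 11.3% and 8.51% of all genes. Their median change was 0.20, and that value is the change of Vegfa, which was dim. With dim probe sets left out the median was 0.078, and it was 0.0055 when all probe sets of a gene were averaged.

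Bhlhe40 encodes a basic helix-loop-helix repressor that is induced by hypoxia and by T cell receptor signalling. Its only probe set read 9.37, 9.12 and 9.18 in arrays labelled GATA3KO, against 8.95, 8.45 and 8.59 in arrays labelled WT. The groups were clear of each other, and the arrays labelled WT spread further than those labelled GATA3KO. The means were 9.22 ± 0.13 in arrays labelled GATA3KO and 8.66 ± 0.25 in arrays labelled WT (SD, n = 3 each), 1.47-fold higher (log2 change 0.56 ± 0.11, SE, adjusted p = 0.0398 by limma). This was the largest change of the 31 genes. The call held without WT replicate 1 (log2 change 0.70, adjusted p = 0.00438 by limma) and was lost without any other array, where the adjusted p lay between 0.0895 and 0.168. It was also lost without the intensity trend (0.143), with mean values over all probe sets (0.0539), and when probe sets rather than genes were fitted (0.0528).

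Mif encodes a secreted cytokine with a hypoxia-responsive promoter. It read 11.09, 11.15 and 11.16 in arrays labelled GATA3KO and 10.82, 10.85 and 11.04 in arrays labelled WT, 1.17-fold higher without overlap (log2 change 0.23 ± 0.059, SE, adjusted p = 0.0919 by limma). It passed without WT replicate 3, the highest control array (log2 change 0.30, adjusted p = 0.0210 by limma), and its adjusted p reached 0.319 without another array. Ddit4, an inhibitor of mTORC1 that hypoxia and glucocorticoids induce, read 10.49, 10.76 and 10.84 in arrays labelled GATA3KO and 9.39, 10.51 and 10.55 in arrays labelled WT (log2 change 0.55 ± 0.26, SE, adjusted p = 0.374 by limma). That difference rested on 1 array, since without WT replicate 1 the log2 change was 0.17. Vegfa, the angiogenic growth factor and best known HIF target, was dim at 5.16, 4.86 and 4.90 in arrays labelled GATA3KO and 4.69, 4.96 and 4.65 in arrays labelled WT (log2 change 0.20 ± 0.12, SE, adjusted p = 0.522 by limma). Its other dim probe set had a change of -0.19, so no direction can be read.

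The other 3 targets lay below 0. Bnip3, a mitophagy receptor and one of the most HIF-dependent genes, read 6.59, 6.72 and 6.71 in arrays labelled GATA3KO and 6.89, 6.77 and 6.80 in arrays labelled WT. It was lower without overlap but not past the threshold (log2 change -0.15 ± 0.077, SE, adjusted p = 0.438 by limma). P4ha1, a collagen prolyl hydroxylase, had a change of -0.13, and Nampt, which makes the NAD+ precursor NMN, had -0.071, both with overlap. The 2 glycogen enzymes were also below 0. Glycogen synthase, Gys1, read 6.39, 6.51 and 6.50 in arrays labelled GATA3KO and 6.60, 6.58 and 6.56 in arrays labelled WT, lower without overlap (log2 change -0.11 ± 0.076, SE, adjusted p = 0.566 by limma). A second, dim Gys1 probe set had a change of 0.043 with overlap. Gbe1, which encodes the branching enzyme and read 6.49, 6.70 and 6.43 in arrays labelled GATA3KO and 6.59, 6.54 and 6.56 in arrays labelled WT, had a change of -0.022 with overlap.

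**Figure D3:**
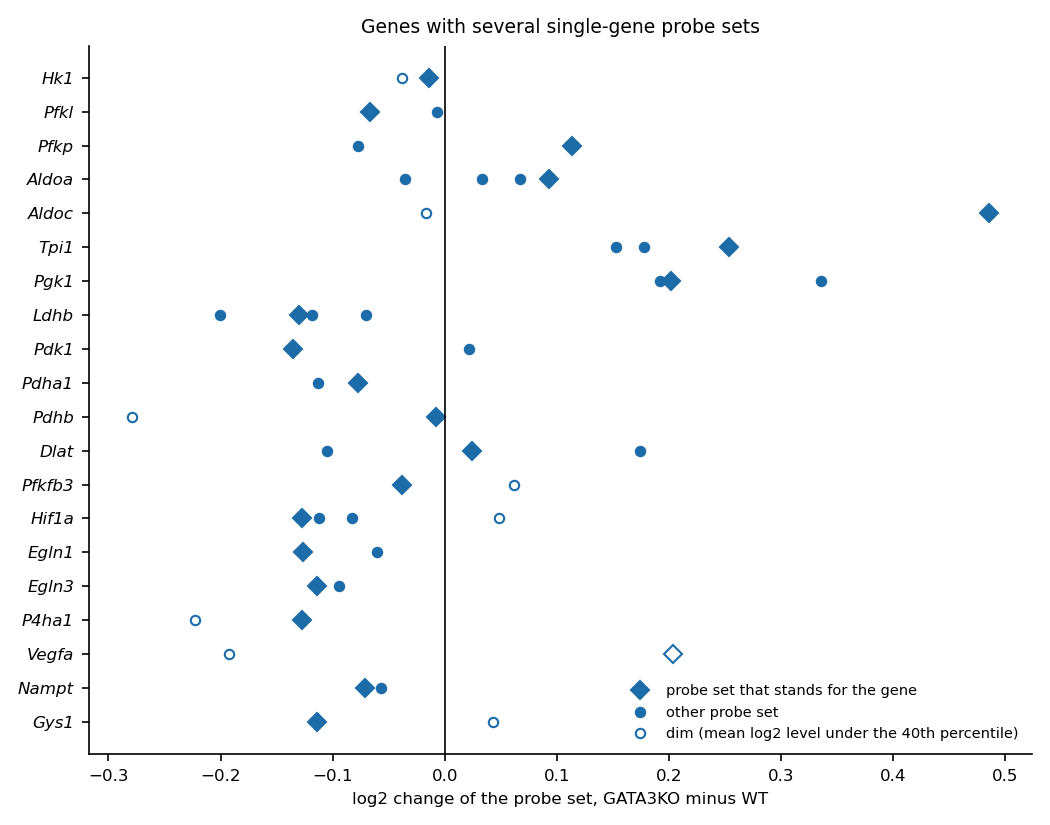
Log2 change, GATA3KO minus WT, of every single-gene probe set for the 20 genes that had several, with diamonds for the probe set that stands for the gene and open symbols for dim probe sets. Tpi1, Pgk1 and Ldhb keep 1 sign over all their probe sets, while Dlat, Pfkp and Vegfa do not.

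Glycolytic enzymes and hypoxia targets were compared as lists by the mean of their genes in each array, centred on the mean over the 6 arrays. Glycolytic enzymes stood at 0.060, 0.057 and 0.061 in arrays labelled GATA3KO and at -0.10, -0.078 and 0.00037 in arrays labelled WT. The hypoxia targets stood at 0.066, 0.077 and 0.11 in arrays labelled GATA3KO and at -0.20, -0.053 and -0.000065 in arrays labelled WT. Both lists were higher in every array labelled GATA3KO than in every array labelled WT, although 3 of the 7 targets had changes below 0. Their difference, glycolytic minus hypoxia, was -0.0067, -0.020 and -0.051 in arrays labelled GATA3KO and 0.10, -0.024 and 0.00043 in arrays labelled WT, and it overlapped between the groups. The low value of WT replicate 1 was mostly that of Ddit4. Without Ddit4, left out after its values were seen, the hypoxia targets stood at 0.066, 0.035 and 0.061 in arrays labelled GATA3KO and at -0.064, -0.077 and -0.020 in arrays labelled WT, again without overlap. The difference of the lists in WT replicate 1 was then -0.036 in place of 0.10, and the groups still overlapped. Bhlhe40, with the largest change of the hypoxia targets (0.56), stayed in both versions of their mean. No mean was taken without Bhlhe40, so the separation of the hypoxia targets may rest on that gene and is not shown for the list at large. Oxygen-sensing genes lay at -0.18, -0.062 and 0.055 in arrays labelled GATA3KO and 0.16, 0.0098 and 0.015 in arrays labelled WT, also with overlap.

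**Figure D4:**
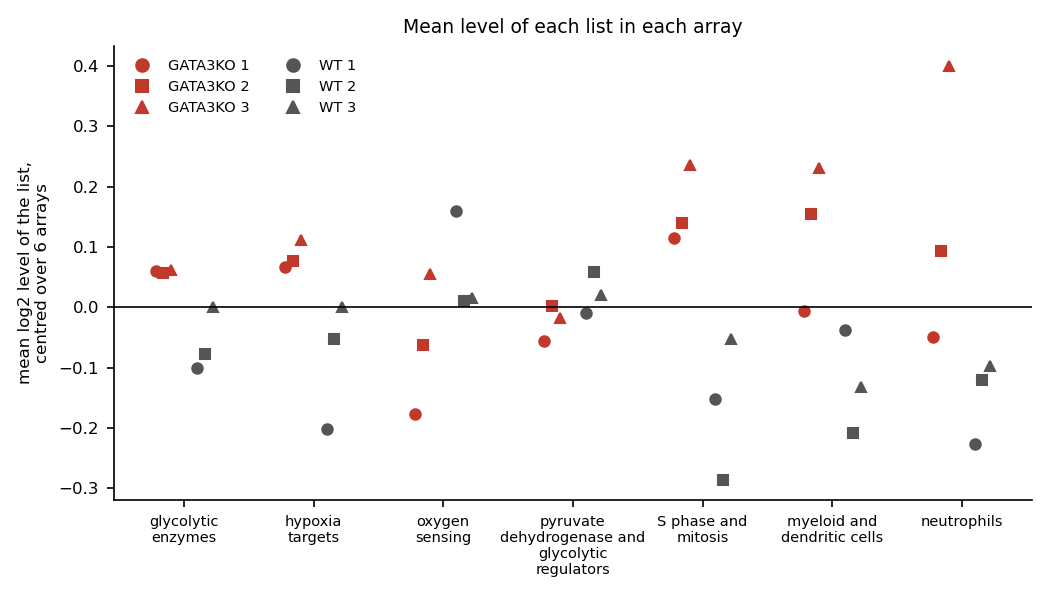
Mean log2 level of 4 of the gene lists and 3 marker lists in each array, centred on the mean over the 6 arrays, in red for arrays labelled GATA3KO and grey for arrays labelled WT. Glycolytic enzymes, hypoxia targets, and S phase and mitosis genes are higher in every array labelled GATA3KO than in every array labelled WT. The same holds for the myeloid and dendritic markers and for the neutrophil markers. The mean of the hypoxia targets includes Bhlhe40, which had the largest change of that list. The 3 red points of the glycolytic enzymes nearly coincide.

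Genes of cell division were higher in the same arrays as the glycolytic enzymes. In the S phase and mitosis list, 18 of 19 measured genes had a change above 0 (53.0% of all genes), with a median of 0.19. Of these, 6 were called higher and 0 lower, against 1.44% and 0.767% of all genes. Their mean log2 level ran from 7.52 to 7.64 in arrays labelled GATA3KO and from 7.11 to 7.35 in arrays labelled WT. Mki67, the common marker of proliferating cells, read 8.05, 8.10 and 8.18 in arrays labelled GATA3KO and 7.48, 7.14 and 7.68 in arrays labelled WT (log2 change 0.68 ± 0.12, SE, adjusted p = 0.0219 by limma). Aurkb, Bub1 and Tyms were dim, and Aurkb was among the 6 called higher. The part of this list in the glycolytic result was not tested.

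Some markers of other cells were also higher in arrays labelled GATA3KO. Of 17 measured myeloid and dendritic markers, 14 had a change above 0 (53.0% of all genes). The lysozyme gene Lyz1 was called higher, 1 of 17 against 1.44% of all genes. At an unadjusted p under 0.05, 4 were higher (8.63% of all genes). Lyz2 was higher without overlap and did not pass (log2 change 1.02, adjusted p = 0.0849 by limma). The mean log2 level of this list ran from 6.32 to 6.56 in arrays labelled GATA3KO and from 6.12 to 6.29 in arrays labelled WT, without overlap. In this list Cd14, Itgam, Itgax and Cd68 were dim, and the other 13 were not. Of 11 neutrophil markers, 8 were dim. The level of that list ran from 4.79 to 5.24 in arrays labelled GATA3KO and from 4.61 to 4.74 in arrays labelled WT, without overlap. None was called. At an unadjusted p under 0.05, 2 were higher (8.63% of all genes), S100a9 (log2 change 1.10) and Ngp (0.74), of which Ngp was dim. Of 10 B cell markers, 6 had a change above 0 and 4 below. Cd22 and Cd74 were called higher, 2 of 10 against 1.44% of all genes. H2-Aa was higher without overlap and did not pass (log2 change 0.54, adjusted p = 0.0684 by limma). The lowest change was -0.40 for Ms4a1 (adjusted p = 0.413 by limma). The B cell list ran from 5.84 to 5.89 in arrays labelled GATA3KO and from 5.69 to 5.72 in arrays labelled WT, without overlap. Cd79a, Blnk, Pax5, Vpreb3 and Fcrla were dim. Of 8 NK cell markers, 4 had a change above 0 and 4 below. Gzma and Gzmb, which activated T cells also express, were called higher, 2 of 8 against 1.44% of all genes. Klrd1 (-0.71) and Klrk1 (-0.57) had log2 changes below 0 without overlap and did not pass (adjusted p = 0.177 and 0.121 by limma). The NK cell list, with Ncr1 dim, overlapped, from 6.26 to 6.51 in arrays labelled GATA3KO and from 6.25 to 6.33 in arrays labelled WT. No CD8 T cell or erythroid marker was called, and 0 had an unadjusted p under 0.05. Among 11 Treg markers, 10 had a change above 0 (53.0% of all genes). Tnfrsf4 was called higher (log2 change 0.32) and Nrp1 lower (-0.77), against 1.44% and 0.767% of all genes. At an unadjusted p under 0.05, 4 were higher and 1 lower, against 8.63% and 5.8% of all genes. For RNA quality, the 3′ minus 5′ difference of the Gapdh control probes was 0.52, 0.48 and 0.48 in arrays labelled GATA3KO and 0.47, 0.38 and 0.55 in arrays labelled WT, and that of beta-actin was 0.87, 0.86 and 0.91 in arrays labelled GATA3KO and 0.75, 0.81 and 0.89 in arrays labelled WT. Both overlapped between the groups. What part any of these has in the glycolytic values was not tested.

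Around the 31 genes stand 76 further measured genes of the same pathways, of which 5 were called higher and 1 lower, beside 1.44% and 0.767% of all genes. Their median change was 0.0096. Among 7 genes of glucose, lactate and pyruvate transport, 1 was called in each direction. Slc2a3, which encodes the high-affinity glucose transporter GLUT3, fell. It read 10.15, 10.21 and 10.20 in arrays labelled GATA3KO and 10.41, 10.55 and 10.43 in arrays labelled WT (log2 change -0.28 ± 0.049, SE, adjusted p = 0.0216 by limma), and a second probe set had a change of -0.25. Both may bind other transcripts, and with such probe sets left out 2 dim ones remained, with changes of 0.12 and -0.20. The call held without WT replicate 1 or 3 and was lost without any other array (adjusted p up to 0.0982 by limma). Mpc1, a subunit of the mitochondrial pyruvate carrier, rose. Its values were 9.16, 9.16 and 9.16 in arrays labelled GATA3KO and 8.79, 8.91 and 8.97 in arrays labelled WT (log2 change 0.26 ± 0.056, SE, adjusted p = 0.0440 by limma). It held that call without WT replicate 3 and lost it without any other array (adjusted p up to 0.163 by limma), and also when probe sets were fitted as features (0.0611). Slc2a1, which encodes GLUT1, the main transporter of activated T cells, overlapped at 9.22, 8.98 and 9.05 in arrays labelled GATA3KO and 8.98, 8.97 and 9.09 in arrays labelled WT (log2 change 0.073, 95% interval -0.080 to 0.23). Slc16a1, a lactate transporter, had a change of 0.25 (adjusted p = 0.319 by limma) with overlap.

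Of 31 further hypoxia targets, 3 were called higher and 0 lower, against 1.44% and 0.767% of all genes. Tfrc, the transferrin receptor that brings iron into dividing cells, read 10.20, 10.15 and 10.17 in arrays labelled GATA3KO and 9.41, 9.61 and 9.63 in arrays labelled WT. It was 1.54-fold higher (log2 change 0.62 ± 0.061, SE, adjusted p = 0.00152 by limma) and passed with each array left out in turn. Plod2, a collagen lysyl hydroxylase, read 6.02, 6.19 and 6.07 in arrays labelled GATA3KO and 5.62, 5.25 and 5.38 in arrays labelled WT, 1.60-fold higher (log2 change 0.67 ± 0.11, SE, adjusted p = 0.0185 by limma). Rora, a nuclear receptor of lymphocytes, read 9.50, 9.55 and 9.49 in arrays labelled GATA3KO and 9.26, 8.86 and 8.95 in arrays labelled WT, 1.41-fold higher (log2 change 0.49 ± 0.090, SE, adjusted p = 0.0257 by limma). Plod2 held its call in 2 of the 6 fits with 1 array left out (adjusted p up to 0.0942 by limma), and Rora held it only without WT replicate 1 (up to 0.110 without another). Car12 (0.34), Angptl4 (0.26) and Wsb1 (-0.23) had log2 changes with an unadjusted p under 0.05 that did not pass.

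No other gene of oxygen sensing was called among 10 measured. Epas1, which encodes HIF-2α, was dim and read 5.56, 5.29 and 5.43 in arrays labelled GATA3KO and 4.88, 5.02 and 5.20 in arrays labelled WT, without overlap (log2 change 0.39 ± 0.12, SE, adjusted p = 0.131 by limma). Arnt2, a partner of HIF factors, was also dim, with a change of 0.24 (adjusted p = 0.339 by limma). Of 12 other glycolytic isozymes and regulators none was called, and Galm, which converts the anomers of sugars, had a change of -0.27 (adjusted p = 0.162 by limma). Another 5 genes of pyruvate dehydrogenase gave 0 calls, and 0 had an unadjusted p under 0.05. Among 11 further glycogen genes Pygl, the liver glycogen phosphorylase, rose (log2 change 0.73 ± 0.14, SE, adjusted p = 0.0347 by limma), but it was dim, with means of 4.53 ± 0.24 in arrays labelled GATA3KO and 3.80 ± 0.18 in arrays labelled WT (SD, n = 3 each), without overlap. Its call held in 1 of the 6 fits with 1 array left out (adjusted p up to 0.110 by limma).

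**Figure D5:**
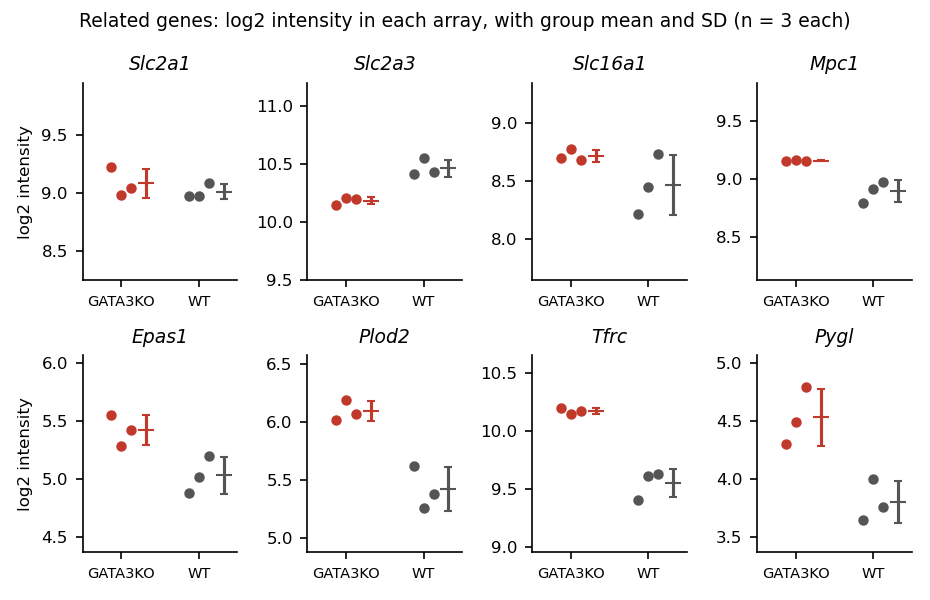
Log2 intensity of 8 related genes in each array labelled GATA3KO (red) and each array labelled WT (grey), with the group mean and SD beside the points. Tfrc, Plod2 and Pygl are higher and Slc2a3 is lower in arrays labelled GATA3KO without overlap, and Slc2a1 overlaps.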

How the data were processed

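Total RNA from sorted Treg cells (6 ug per array, per the labels' protocols) was hybridised to Affymetrix arrays, 3 labelled GATA3KO and 3 labelled WT. The deposited table holds log2 intensities of 22690 probe sets, made by the authors with RMA (version not stated), per the submitters' processing notes. RMA quantile normalizes the arrays, so a shift shared by most genes would be lost. Scan dates and scanner files were not used here.

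Platform annotation named 21084 probe sets, 20380 of them with 1 gene and no control, and 691 with several genes. The probe set with the highest mean stood for a gene, which gave 12393 genes. They were fitted together in R 4.3.3 with limma 3.58.1 (lmFit, eBayes with an intensity trend), two-sided, with Benjamini-Hochberg adjustment over all genes and a threshold of 0.05. Groups and replicate numbers came from the titles. The design text gives 3 mice for each group. Errors are SDs over arrays, or limma's moderated standard errors. The number of arrays limits the precision.

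The genes, the 5 lists they form, the 6 related and 8 marker lists and the tests were chosen with earlier results of these data known. Named with values were genes past an adjusted or unadjusted p of 0.05, the extremes of each list, Hif1a, Hk2 and Vegfa. Related genes were named at an unadjusted p under 0.05, with Slc2a1 and Epas1 added. No set test was run on the lists. Alternatives were a replicate block, no trend, robust variance, dim probe sets left out, 2 renormalizations, array weights, 2 other choices of probe set, and each array left out. Probe sets fitted as features, and the hypoxia targets' mean without Ddit4, were added after seeing the data. Promoters were searched in Python 3.11.15, and figures were drawn with matplotlib 3.10.9.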

Additional observations from a re-analysis of the deposited data

Results flagged for a closer look

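Gapdh, the glycolytic dehydrogenase between Tpi1 and Pgk1, had no single-gene probe set apart from controls and so stood outside the comparison. Still, 4 of its 5 unused probe sets read higher in every array labelled GATA3KO than in every array labelled WT. The share over all genes was 11.3%, counted with 1 probe set for each gene, so it is not a like measure. Of the 4 Gapdh probe sets, 3 are control probe sets for the same transcript, so they are not separate results. The probe set annotated to 5 genes including Gapdh read 11.59, 11.54 and 11.62 in arrays labelled GATA3KO and 11.49, 11.39 and 11.48 in arrays labelled WT, a log2 change of 0.13. The control probe sets for the 3′ end, the 5′ end and the middle of Gapdh had log2 changes of 0.094, 0.073 and 0.078. The 3′ one read 11.26, 11.26 and 11.25 in arrays labelled GATA3KO and 11.17, 11.11 and 11.20 in arrays labelled WT. Their adjusted p over all probe sets by limma was 0.214 for the shared probe set and 0.348, 0.514 and 0.480 for the 3 controls, so none passed. The remaining probe set annotated to Gapdh and 1 other gene had a change of -0.085 with overlapping groups. The beta-actin control probe sets overlapped, with changes between -0.069 and -0.0053.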

How the results depend on the processing

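The 2 higher calls among the 31 genes became 4 with the replicate block, 5 under array quality weights, 0 with no intensity trend and 0 when a gene's probe sets were averaged, and lay between 0 and 1 with each array left out. Lower calls among them stayed at 0 in each of these. Over all genes, 179 higher and 95 lower calls became 31 and 23 without the trend and 400 and 185 with weights. With each array left out they ranged from 35 to 165 higher and from 24 to 105 lower. The smallest counts came without GATA3KO replicate 2 (35 higher, 27 lower) and without WT replicate 2 (38 higher, 24 lower), and without WT replicate 3 there were 54 lower. Median centring split the calls into 158 higher and 131 lower. The hypoxia targets' median of 0.20 became 0.078 with dim probe sets left out and 0.0055 with probe sets averaged, and lay between 0.11 and 0.22 with each array left out. The glycolytic median stayed between 0.080 and 0.13 in every alternative run. For the changes of single genes, 610 of 684 repeats kept direction and side of the threshold, 50 lost a call, 8 gained one and 16 changed sign. Sign changes were at 0.012 for Pfkfb3 under weights and again when its probe sets were averaged, at 0.0088 for Gbe1 with weights, and at 0.12 for Slc2a3 with _x_at and _s_at probe sets left out. With each array left out, the change ranged from -0.041 to 0.083 for Ldha, -0.048 to 0.013 for Hk1, -0.091 to 0.025 for Pfkm, -0.025 to 0.024 for Pdhb, -0.0040 to 0.081 for Dlat, -0.11 to 0.044 for Pfkfb3 and -0.10 to 0.032 for Gbe1. Where an array was left out or probe sets were dropped, fewer values entered the fit. The cause of the other differences was not tested. Same-numbered arrays of the 2 groups correlated at 0.039, -0.018 and 0.070 in their deviations, so the numbers were not taken to pair mice, and the block added Pgk1 (adjusted p = 0.0411) and Mif (0.0446) by limma. Aldoa gave no value without _x_at and _s_at probe sets, and Eno2, Vegfa, Epas1, Arnt2 and Pygl none without dim ones.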

Other observations

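Aldoc and Mif share 12 bases around their ACGTG match, gtCACGTagctc, at nearly the same place after the start. The stretch was taken from these 2 genes, so their holding it was fixed in advance. No other of the 27025 genes with a RefSeq promoter holds it in the searched window. How often a stretch of 12 bases recurs by chance was not tested, so the count carries no weight. The shared stretch was noticed after the values of Aldoc and Mif were seen, and nothing about binding was measured.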
